A study of Mus musculus with 12 samples.

Results

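The 10 genes described here encode the interleukin-2 (IL-2) receptor, the kinase and transcription factors it signals through, and the feedback inhibitors that the signal induces. They were taken by symbol: Il2ra, Il2rb, Il2rg, Jak3, Stat5a, Stat5b, Cish, Socs1, Socs2 and Socs3. All 10 were present among the 18929 gene symbols of the deposited table, and all 10 were among the 12699 genes tested. The libraries came from mouse T cells of strain C57BL/6 that were kept for 5 days in culture conditions driving the T helper 1 (Th1) fate, and RNA was taken from sorted cells. The comparison set 3 control libraries of wild-type (WT) genotype against 3 libraries of genotype Sdhc cKO. Sdhc encodes one of the membrane subunits of respiratory complex II (succinate dehydrogenase), and cKO stands for conditional knockout. The sources used here do not name the Cre line, the sex or age of the mice, or the origin of the replicates. Sex-linked transcripts, given below, differ within each group, so the libraries of a group are not all repeats of the same cells. How many animals they stand for is not known, and the p-values below reflect spread among libraries that may be partly technical. The other 6 of the 12 samples (Slc25a1 and Slc25a11 knockouts and empty vector, 2 of each) were not analysed here.

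IL-2 binds a receptor of 3 chains. The alpha chain (CD25, gene Il2ra) raises the affinity for the cytokine, and the beta chain (Il2rb) and the common gamma chain (Il2rg) carry the signal through the kinases JAK1 and JAK3. These kinases phosphorylate the receptor and the transcription factors STAT5A and STAT5B, which enter the nucleus and induce, among others, Il2ra itself and the feedback inhibitors CISH, SOCS1, SOCS2 and SOCS3. In activated T cells the pathway supports growth and survival and helps to set effector fate.

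Values are normalised counts, that is, reads per gene divided by 1 size factor per library. The 6 libraries held between 18144933 and 21983821 counted reads. Sdhc itself had 1683, 1602 and 1892 normalised counts in controls 1, 2 and 3, against 1452, 1562 and 1655 in cKO 1, 2 and 3. Those groups overlapped, and counts per gene do not show the loss of part of a gene, so they do not check the labels. Markers of T cells were high in all libraries, with 10113 to 11045 normalised counts for Cd4, and the Th1 genes Tbx21 and Ifng were present, the latter at 1382 ± 68.9 normalised counts in the control group, against 868 ± 11.5 in the cKO group (SD over 3 libraries). The libraries differed within groups in sex-linked transcripts. Reads on 4 Y-linked genes made up 0.048, 131 and 55.1 RPM (reads scaled to library size) in controls 1, 2 and 3 and 0.207, 193 and 189 in cKO 1, 2 and 3. Control 1 and cKO 1 thus stood apart from the other 4 libraries, and values without one or both are given beside results they move most. The other 4 were not alike. Controls 2 and 3 held Xist, the transcript of the inactive X, at 2490 and 6406 normalised counts, against 0 and 2.15 in cKO 2 and 3. Leaving out the libraries numbered 1 therefore does not even out sex-linked transcripts between the groups.

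None of the 10 genes passed the test between the groups (limma-trend over all tested genes, adjusted p of 0.978 to 0.996), and 0 of the 12699 genes passed in all, a share of 0%. At an unadjusted p under 0.05 stood 2 of the 10, Jak3 and Stat5a, and 445 of all genes, 3.5%. The 2 became 0 without control 3 or without cKO 3, 1 without control 1, control 2 or cKO 2, and 3 without both libraries numbered 1. With edgeR on the recovered reads 0 of the 10 and 0 of all genes passed after adjustment, and with DESeq2 0 of the 10 and 2 of all genes, Ifng and Dleu2. With the replicate number as a block in limma 0 of the 10 and 1 of all genes, Ifng, passed; both genes are named because they make up these counts.

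In 3 of the 10 genes the cKO and control values did not overlap: Jak3 and Stat5a were lower in every cKO library than in any control, and Cish was higher in every one. Of all tested genes, 10.2% had groups apart, 5.64% with cKO lower and 4.51% with cKO higher. With a library left out this count can only stay or rise, since groups that are apart remain apart. Without control 1 it was 5 of 10, adding Il2ra and Socs2, beside 25.8% of all genes. Without control 1 and cKO 1 it was 6 of 10, adding Stat5b as well, beside 38.6%. Fold changes of the 10 genes lay between -0.24 and 0.14 on the log2 scale, 4 positive and 6 negative, with a median of -0.03, beside a median of -0.01 over all tested genes.

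**Figure D1:**
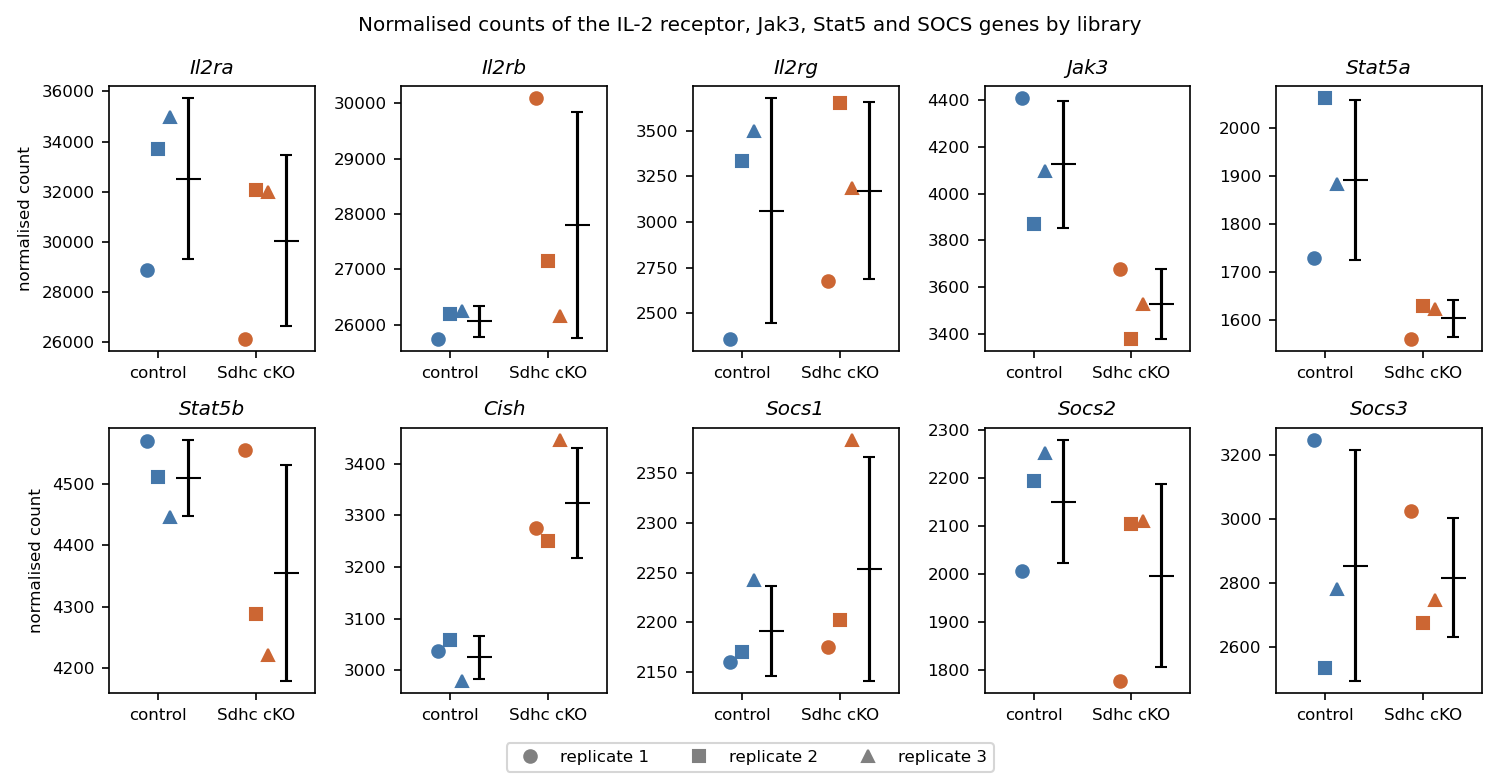
Normalised counts (y axis, a separate scale in each panel that does not start at 0) of each gene in the 3 control (blue) and 3 Sdhc cKO (orange) libraries, with symbols for the replicate number and a bar for the mean and SD. The groups are apart for Jak3, Stat5a and Cish and overlap for the other 7 genes.

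The receptor chains were among the most abundant transcripts of these cells. Per length (as RPKM, reads scaled to annotated exon length and library size), Il2rb stood at 320 ± 21.2 and Il2ra at 279 ± 25.5 (SD over the 6 libraries), and only 139 and 159 of the 11959 tested genes with a known length stood higher. Il2rg followed at 66.4 ± 9.79. On the same scale came Socs3 (49.96), Stat5b (40.7), Socs1 (38.9), Jak3 (36.4), Cish (25.2), Stat5a (12.5) and Socs2 (11.1). The library ranges of neighbours in this order overlapped for Il2rg and Socs3, Stat5b and Socs1, Socs1 and Jak3, and Stat5a and Socs2, so the order within those pairs is not fixed by these libraries. Even Socs2, the lowest, stood above 68.7% of the genes.

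Il2ra, which lies on chromosome 2 (11642807 to 11693193, plus strand, GRCm38), had 28886, 33720 and 34965 normalised counts in controls 1, 2 and 3, against 26124, 32080 and 31974 in cKO 1, 2 and 3. The groups overlapped, and the lowest value of each group was that of replicate 1. The log2 fold change was -0.12 with a 95% interval of -0.40 to 0.17 (SE 0.12, exact permutation p = 0.5). In the pairs of same-numbered libraries the cKO value was lower in 3 of 3, by 0.15, 0.07 and 0.13 on the log2 scale. A difference of one sign in all pairs was seen at 36.4% of all tested genes. The values for Il2ra moved with the library left out: the log2 fold change was -0.20 without control 1 and -0.02 without cKO 1. With the Y-linked share of reads as a covariate it was -0.22 (SE 0.08, limma adjusted p = 0.129).

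Il2rb (chromosome 15, 78479256 to 78495271, minus strand) was the steadiest chain in the controls, at 25737, 26194 and 26258 normalised counts. The cKO libraries had 30093, 27160 and 26163, so that cKO 1 was the highest of all 6 and cKO 3 lay within the control range. The log2 fold change was 0.09 with a 95% interval of -0.11 to 0.29 (SE 0.09). Without cKO 1 it was 0.03. In cKO 1, where Il2rb was highest, Il2ra was lowest: the ratio of Il2rb to Il2ra per length was 1.53 in that library, against at most 1.19 in any other library. Group means of the ratio were 1.07 ± 0.10 for control and 1.25 ± 0.25 for cKO (SD, n = 3), and the groups overlapped (exact permutation p = 0.4).

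Il2rg, the chain shared with the receptors for IL-4, IL-7, IL-9, IL-15 and IL-21, varied most between libraries of one group. It had 2358, 3333 and 3498 normalised counts in controls 1, 2 and 3, against 2680, 3651 and 3188 in cKO 1, 2 and 3. Replicate 1 was the lowest of both groups, and the SD was 20.1% of the mean in the controls and 15.3% in the cKO libraries, the highest of the 10 genes in both groups. The log2 fold change was 0.06 with a 95% interval of -0.33 to 0.45 (SE 0.17), and it changed sign without control 1 (-0.12), without cKO 2 (-0.05), without both libraries numbered 1 (-0.0012), with array weights (-0.0016) and with the Y-linked covariate (-0.09). Il2rg is X-linked (101264378 to 101268255, minus strand), and the inactive-X transcript Xist had 9780, 2490 and 6406 normalised counts in controls 1, 2 and 3, against 7565, 0 and 2.15 in cKO 1, 2 and 3. Whether the sex-linked difference plays a part in the Il2rg values was not tested. In the annotation 30.5% of the exonic length of Il2rg is also assigned to the gene model Gm20489 on the same strand, which had a mean of 0.526 normalised counts in the deposited table. How reads in the shared stretch were counted is unknown, so the level of Il2rg is uncertain.

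**Figure D2:**
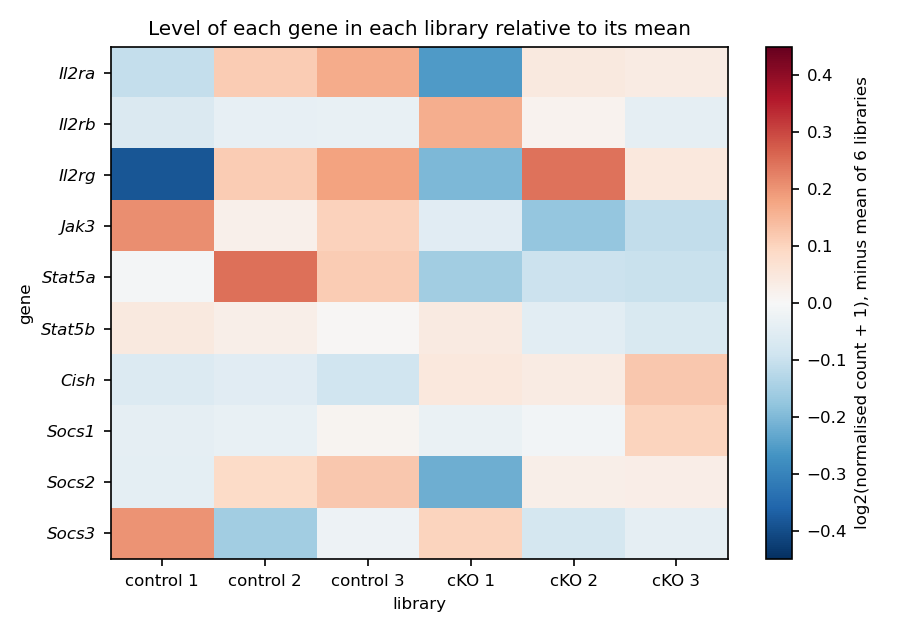
Each cell gives the log2(normalised count + 1) of a gene (rows) in a library (columns) minus its mean over the 6 libraries, from blue (lower) to red (higher). Il2ra, Il2rg and Socs2 are low in both libraries numbered 1, Jak3 and Stat5a are low in the 3 cKO libraries, and Cish is high there.

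Jak3, whose kinase docks on the common gamma chain, was lower in every cKO library than in any control. On chromosome 8 (71676296 to 71690575, plus strand) it had 4410, 3869 and 4097 normalised counts in controls 1, 2 and 3, against 3676, 3376 and 3528 in cKO 1, 2 and 3. The highest cKO value lay below the lowest control. Means were 4125 ± 272 and 3526 ± 150 (SD, n = 3 each), and the cKO mean was 85.5% of control, or -0.22 on the log2 scale with a 95% interval of -0.40 to -0.05 (SE 0.08). The exact permutation p was 0.1, the smallest that 3 against 3 allows, and the limma adjusted p was 0.978. The difference was -0.26, -0.20 and -0.22 in pairs 1, 2 and 3, of near the same size in each. With the replicate number as a block the limma adjusted p was 0.269. Without both libraries numbered 1 the log2 fold change was -0.21. The neighbouring gene Insl3 shares 7.55% of the exonic length of Jak3 and had a mean of only 17.0 normalised counts.

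Stat5a and Stat5b are neighbours on chromosome 11, at 100859351 to 100885169 on the plus strand and 100780731 to 100850724 on the minus strand, and their proteins are close relatives that bind the same DNA motif. Stat5a had 1729, 2063 and 1883 normalised counts in controls 1, 2 and 3, against 1559, 1628 and 1622 in cKO 1, 2 and 3. Here too the highest cKO value lay below the lowest control, and the cKO libraries were close to each other, with an SD of 38.3 against 167 in the controls. The cKO mean was 84.7% of control, or -0.24 on the log2 scale with a 95% interval of -0.43 to -0.04 (SE 0.08, exact permutation p = 0.1, limma adjusted p = 0.978). With the Y-linked covariate Stat5a passed, with a log2 fold change of -0.28 and a limma adjusted p of 0.042, as did 6.5% of all tested genes. The Y-linked share was higher in cKO 2 and 3 than in any control. Covariate and genotype are thus partly tied in that fit, which does not cleanly correct for sex. Under the other settings the adjusted p of Stat5a was 0.269 or more.

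Stat5b, the more abundant of the pair per length, had 4571, 4512 and 4446 normalised counts in controls 1, 2 and 3, against 4556, 4288 and 4221 in cKO 1, 2 and 3, where cKO 1 lay within the control range and the other 2 below it. The log2 fold change was -0.05 with a 95% interval of -0.20 to 0.10 (SE 0.07). Of the reads on both genes, Stat5a took 27.4%, 31.4% and 29.8% in controls 1, 2 and 3, against 25.5%, 27.5% and 27.8% in cKO 1, 2 and 3. The share was lower in cKO in 3 of 3 same-numbered pairs, while the groups overlapped (exact permutation p = 0.3 without pairing). Of the 50-base words in their transcripts, 8.21% of those of Stat5a also occur in Stat5b and 11% of those of Stat5b in Stat5a, so reads from those stretches may have been dropped or split between them. In the annotation 1.01% of the exonic length of Stat5a also belongs to Stat3 on the opposite strand. Stat3 had a mean of 4494 normalised counts, and whether reads were counted by strand is unknown.

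**Figure D3:**
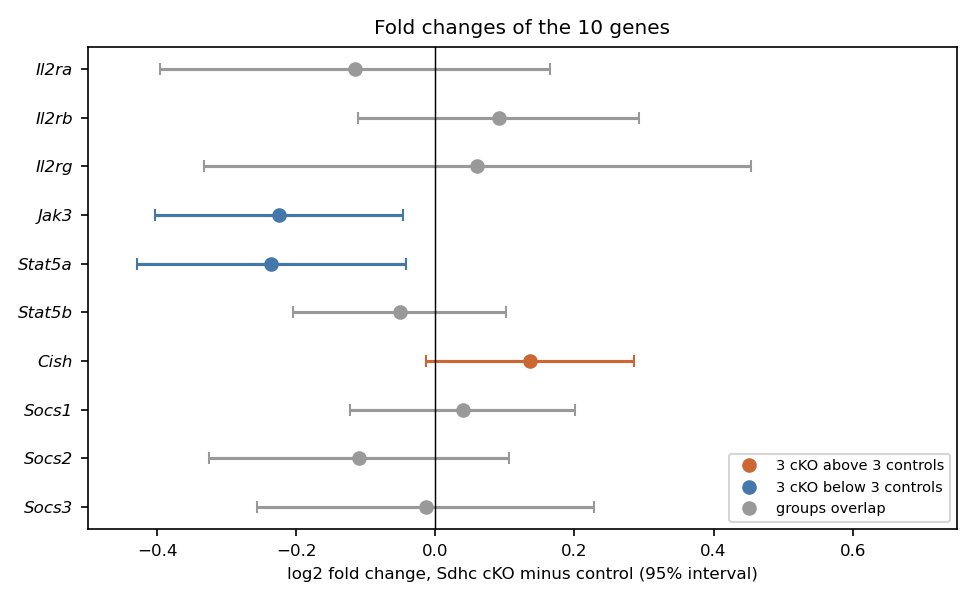
Log2 fold changes (cKO minus control, x axis) with 95% intervals from limma-trend for the 10 genes (y axis), coloured by whether the groups overlap. The intervals of Jak3 and Stat5a lie below 0 before adjustment, the interval of Cish just reaches it (-0.01), and the other 7 span 0.

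Cish, an SH2-domain protein that binds the activated receptor and limits the STAT5 signal, was the only one of the 10 that was higher in every cKO library. On chromosome 9 (107296026 to 107302784, plus strand) it had 3037, 3059 and 2979 normalised counts in controls 1, 2 and 3, against 3275, 3251 and 3446 in cKO 1, 2 and 3. The SD of the 3 controls was 41.5 normalised counts, and the lowest cKO value stood above the highest control. The cKO mean was 110% of control, or 0.14 on the log2 scale with a 95% interval of -0.01 to 0.29 (SE 0.06, exact permutation p = 0.1). It did not pass over all genes (limma adjusted p = 0.978, and 0.381 with the replicate block). The difference was 0.11, 0.09 and 0.21 in pairs 1, 2 and 3. In the annotation 7.46% of the exonic length of Cish is shared with Gm17041 and 4.07% with Gm17040, both on the opposite strand. How reads there were counted is unknown.

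The DNA motif that STAT5 dimers bind, TTCNNNGAA, which reads the same on both strands, was sought in RefSeq promoter windows of 300 bases, from 250 before to 50 after a transcript start (GRCm38.p6). Such windows were matched for 8 of the 10 genes. The motif was found in those of Cish and Socs3, and 8.3% of all 32851 windows hold it. The matches are shown because the window of Cish holds a close pair of them, with the motif in capitals and 5′ to 3′ on the gene's strand:
Cish, chr9:107296649-107296678, plus strand: ccgcccagttTTCCTGGAAagTTCTTGGAA
Socs3, chr11:117969501-117969530, minus strand: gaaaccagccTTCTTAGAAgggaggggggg
The first match of Cish begins at base 1 of the RefSeq transcript and the second at base 12. The stretch shown overlaps an exon of Cish in GENCODE M21. The match of Socs3 begins 154 bases before the RefSeq start and lies outside the exons of Socs3 in that annotation. A match describes these letters and is not evidence of binding. The windows of Il2ra, Il2rg, Jak3, Stat5a, Stat5b and Socs1 did not hold it.

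For the 3 SOCS genes the groups overlapped. Socs1, an inhibitor that blocks JAK kinase activity directly, had 2161, 2170 and 2243 normalised counts in controls 1, 2 and 3, against 2175, 2203 and 2383 in cKO 1, 2 and 3. Its log2 fold change was 0.04 with a 95% interval of -0.12 to 0.20 (SE 0.07). Socs2, best known as a brake on growth hormone signalling and a STAT5 target, had 2006, 2194 and 2252 normalised counts in controls 1, 2 and 3, against 1777, 2104 and 2110 in cKO 1, 2 and 3. Its log2 fold change was -0.11 with a 95% interval of -0.33 to 0.11 (SE 0.09), and it was lower in cKO in 3 of 3 pairs. Without cKO 1 it was -0.028. Socs3, which restrains the signal of IL-6 family receptors to STAT3, had 3248, 2534 and 2781 normalised counts in controls 1, 2 and 3. In cKO 1, 2 and 3 it had 3027, 2674 and 2747, all 3 within the control range. Its log2 fold change was -0.01 with a 95% interval of -0.26 to 0.23 (SE 0.10). Replicate 1 was the highest of both groups for Socs3 and the lowest of both for Socs2. A difference between Cish and the SOCS genes was not tested.

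**Figure D4:**
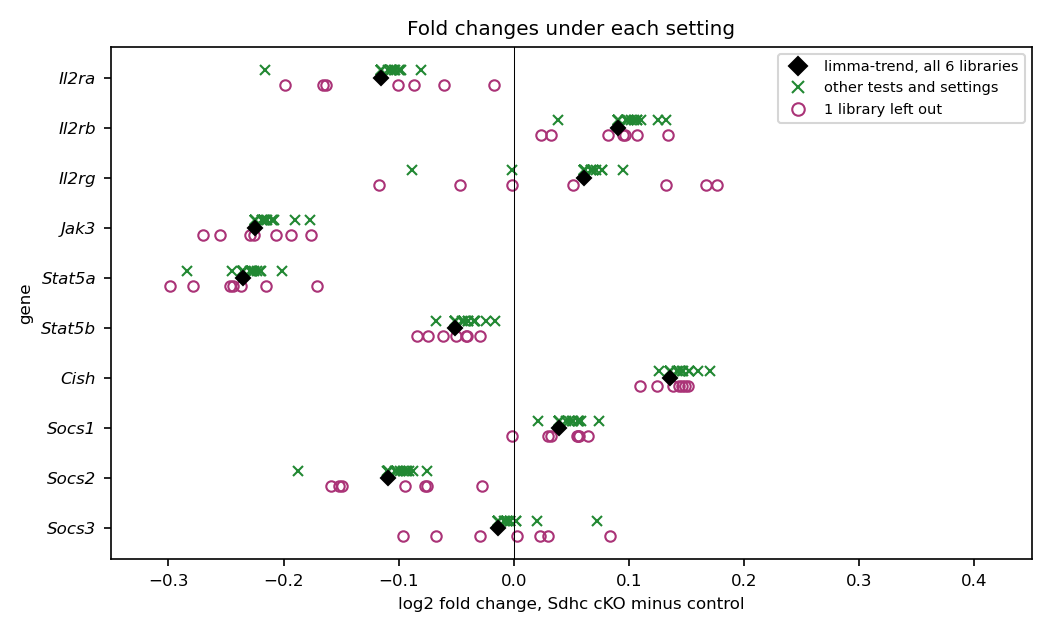
Log2 fold change of each gene (y axis) with all 6 libraries (black diamonds), with other tests, scalings, filters and covariates (green crosses) and with libraries left out (open circles, 1 library or both numbered 1). Jak3, Stat5a and Stat5b stay below 0 and Cish above 0 in every setting shown, while Il2rg, Socs1 and Socs3 cross it.

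Genes around the receptor were read from 6 lists. Of the cytokines and receptor chains that use the common gamma chain, 7 of 11 could be tested and 0 passed (median log2 fold change -0.02, 0 with groups apart). Il2 itself was nearly silent, with at most 3.92 normalised counts in any library, and Il15 and Il7 were as low, so no fold is given. Il21, a cytokine of helper T cells, had means of 179 ± 46.7 in control and 120 ± 25.9 in cKO, -0.56 on the log2 scale (SE 0.25) with overlapping groups. Il4 had -0.32 (SE 0.38), but 0.15 without control 1. The abundant receptor chain genes Il4ra and Il21r had 0.15 (SE 0.08) and -0.02 (SE 0.10), and Il15ra, present at 112 to 177 normalised counts, had 0.03 (SE 0.21).

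Of the other Jak and Stat genes, 7 were tested. None passed, 0 had groups apart, and their fold changes lay between -0.08 and 0.03. Jak1, the partner of JAK3 on the receptor, had means of 10987 ± 452 and 11215 ± 639 normalised counts, 0.03 on the log2 scale (SE 0.08). Stat6, which serves the IL-4 receptor, had -0.04 (SE 0.07), Stat3 -0.05 (SE 0.07) and Jak2 -0.08 (SE 0.11). Among 10 genes of adaptors and the PI3 kinase branch, the second arm of IL-2 signalling, 0 passed and 0 had groups apart (median -0.04). Akt1, the kinase downstream of PI3 kinase, had means of 3245 ± 224 and 2774 ± 343, -0.23 on the log2 scale (SE 0.11) and -0.13 without cKO 1, and passed with the Y-linked covariate only (-0.34, limma adjusted p = 0.016). Lck and Pik3cd, the most abundant of this list, had 0.02 (SE 0.11) and 0.02 (SE 0.07), and Shc1 had -0.06 (SE 0.08).

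Of 15 further inhibitors (other SOCS genes, PIAS genes, phosphatases and Sh2b3), 0 passed and 2 had groups apart, both lower in cKO, with a median of -0.04. That count of 2 in 15 stands beside 10.2% of all tested genes with groups apart and 5.64% with cKO lower. Dusp6, which encodes a phosphatase of ERK kinases, had means of 922 ± 142 and 758 ± 25.9, -0.27 on the log2 scale (SE 0.12), which was -0.15 without control 1 and -0.13 without both libraries numbered 1. Ptpn2, which encodes a phosphatase acting on JAK1, JAK3 and STAT proteins, was the other, at -0.08 (SE 0.07), and is named because it makes up that count. Ptpn6, Ptpn1 and Socs6 had -0.13 (SE 0.09), -0.04 (SE 0.07) and -0.14 (SE 0.12). Without cKO 1, Ptpn6 was -0.068 and Socs6 was -0.055.

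Genes known to be induced through IL-2 and STAT5 did not pass either. Of 22 tested, 0 passed, 7 had positive and 15 negative fold changes, and the median was -0.09. The groups were apart in 3 of the 22, all lower in cKO: Prdm1, the gene of the effector regulator Blimp-1, Nfil3 and Gadd45g, at -0.23 (SE 0.10), -0.16 (SE 0.08) and -0.23 (SE 0.10). These 3 are named because they make up that count, after their values were seen, and 3 of 22 is near the 10.2% of all tested genes with groups apart (5.64% lower in cKO). The survival gene Bcl2 had 8048 ± 395 and 8481 ± 249 normalised counts, 0.08 on the log2 scale (SE 0.07). Gzmb and Tnfrsf4, the most abundant per length, had -0.10 (SE 0.31) and -0.01 (SE 0.13), and Id2 and Lif had -0.35 (SE 0.19) and -0.31 (SE 0.29). Id2 was -0.13 without control 1, and Lif was 0.050 without cKO 1. Lif passed with the Y-linked covariate only (-0.65, limma adjusted p = 0.00473).

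Of 6 genes known to be repressed through IL-2 and STAT5, 0 passed and 2 had groups apart, both higher in cKO, beside 10.2% of all tested genes apart and 4.51% higher. Bcl6, the repressor that opposes Blimp-1, had 116, 108 and 81.4 normalised counts in controls 1, 2 and 3, against 173, 136 and 124 in cKO 1, 2 and 3. All 3 cKO values lay above the controls, 0.50 on the log2 scale (SE 0.20, exact permutation p = 0.1, limma adjusted p = 0.978). Il6ra, the IL-6 receptor gene and the other of the 2, had 0.26 (SE 0.12). Klf2, Tcf7 and Cxcr5 had 0.11 (SE 0.08), -0.03 (SE 0.08) and -0.27 (SE 0.30), and Cxcr5 was 0.0041 without cKO 3. The median of the list was 0.05.

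**Figure D5:**
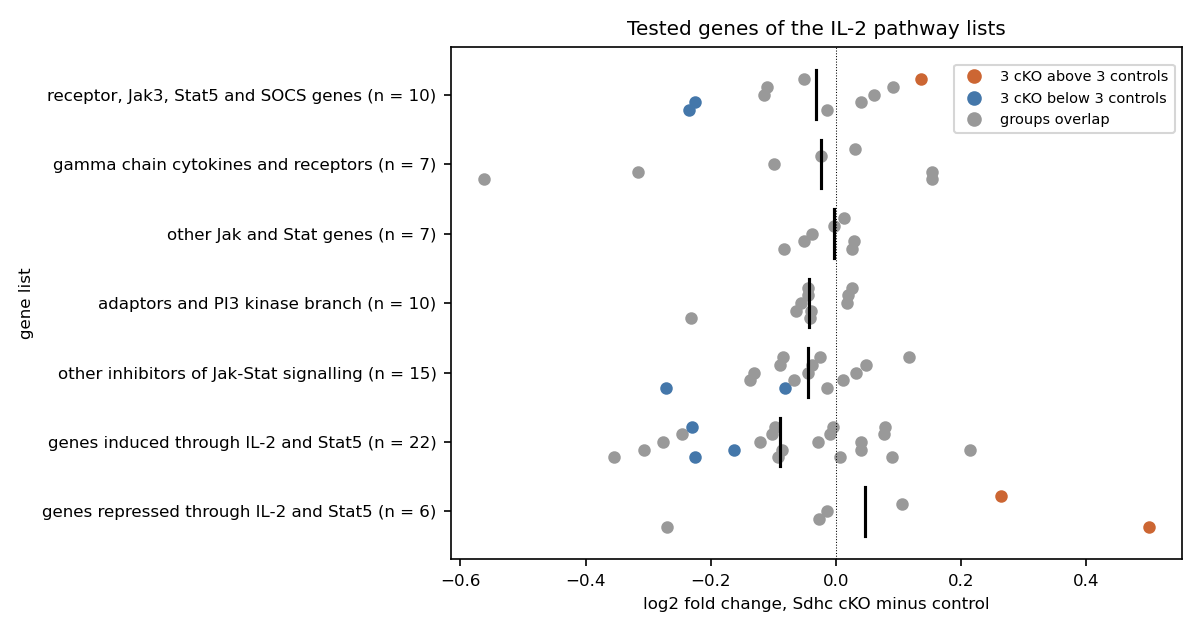
Log2 fold changes (x axis) of the tested genes in each list (y axis), with a black bar at the list's median and colour where the 3 cKO and 3 control values do not overlap. Medians lie between -0.09 and 0.05. Coloured points are 3 of 10 in the top row, 2 of 15 among other inhibitors, 3 of 22 among induced genes and 2 of 6 among repressed genes. The other lists have 0, and 10.2% of all tested genes have groups apart.

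Cells of other types can carry these receptor chains, regulatory T cells CD25 and NK cells the beta chain, and in bulk RNA fewer cells of a type and less RNA per cell cannot be told apart. The 6 regulatory T cell genes had negative fold changes in 6 of 6, with a median of -0.18 and 0 passing. Of all tested genes, 54.1% had a negative fold change. In same-numbered pairs, Foxp3 and Ikzf4 were lower in cKO in 3 of 3, while Ikzf2, Nrp1, Lrrc32 and Gpr83 went both ways. The summed level of the 6 genes was 3482 to 3692 normalised counts across the controls, against 2962 to 3412 across the cKO libraries. Foxp3, the defining gene of regulatory T cells, had means of 258 ± 26.6 and 218 ± 8.61, -0.24 on the log2 scale (SE 0.12). It was the 1 of the 6 whose groups were apart, lower in every cKO library. That count stands beside 10.2% of all tested genes with groups apart and 5.64% with cKO lower. The 7 NK cell genes summed to 382, 165 and 195 in controls 1 to 3 and 289, 108 and 125 in cKO 1 to 3. Their sum was thus lower in cKO in every same-numbered pair. The 2 CD8 T cell genes summed to 278 to 368 for control and 235 to 547 for cKO. For 5 B cell genes, mostly Ighm, it was 1624 to 1978 and 1864 to 2070. For 5 myeloid genes it was 42.1 to 83.4 and 44.3 to 92.4. Fold changes of tested genes were negative in 3 of 3 NK cell genes (median -0.58) and 2 of 2 myeloid genes. They were positive in 6 of 6 T cell genes, 2 of 2 CD8 T cell genes and 2 of 3 B cell genes, and 0 passed. The part of these cells in the values of Il2ra, Il2rb and Stat5a was not tested.

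Over the 6 libraries, 10292 genes averaging 50 or more normalised counts were ranked by how closely their log2 values followed those of Il2ra and of Cish. The nearest to Il2ra were Mtch1, Sumo3 and Hnrnpab (Pearson r of 0.998, 0.997 and 0.997) and to Cish were Gdap10, Dpm1 and Tmem186 (0.977, 0.974 and 0.970). These values were picked as the highest of 10292, carry no test, and describe the 6 libraries only.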

How the data were processed

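Gene-level RNA-seq values of 6 libraries (3 control, 3 Sdhc cKO, grouped by their titles) were used. The submitters' processing notes name STAR, HTSeq and DESeq2 with the build mm10; for versions, settings, annotation and strand, the sources used here give nothing. The deposited signal values are reads divided by 1 size factor per library: in each library 100% were whole multiples of 1 step, to within 0.01, from which reads were recovered. The plan was edgeR for raw counts or limma-trend for normalized values. As the values are normalized, limma-trend was run on log2(value + 1) with limma 3.58.1 under R 4.3.3, a scale that understates the change of low genes, for genes above a value of 10 in 3 or more libraries. Genotype was the single term, and p-values were adjusted by Benjamini-Hochberg over all tested genes, at a threshold of 0.05. Exact permutation tests were 2-sided. SE and intervals are moderated. Counting-error figures cover counting only, since reads without molecular identifiers are not independent molecules. The fit was also run on simulated counts without replicate or sex-linked structure, with set fold changes larger than those of the genes described here. They do not show how the fit performs on smaller changes or with such structure.

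The members, lists and tests were chosen with earlier results of these data known. Named genes were the 10 members, Il2, Il15ra, Jak1 and Bcl2 and, of each pathway list, the 2 most abundant per length and the 2 largest fold changes, as well as any called. For likeness, the 3 genes with the highest Pearson r to Il2ra and to Cish were taken, leaving out unnamed models. Of the listed genes, 2 are not reported here. Positions and exonic lengths came from GENCODE M21 (GRCm38, the assembly of mm10), where 17568 symbols matched once.

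Both groups carry replicate numbers 1, 2 and 3. After subtracting group means, libraries with the same number correlated over the tested genes (0.579, 0.458 and 0.188 for numbers 1, 2 and 3). Libraries with different numbers had -0.504 to 0.272, the highest being control 2 with cKO 3, above the value for number 3. Subtracting group means ties these values to each other, as a positive same-number value pushes the different-number values down. The different-number values are therefore not an independent comparison. The numbers were used as pairs only in the same-numbered differences and the replicate block. The main fit, its intervals and the permutation tests did not use them. These correlations do not settle the pairing for number 3. The labels do not say what a number stands for. Settings tried in turn were edgeR 4.0.16 (quasi-likelihood, TMM), limma-voom and DESeq2 1.42.0, all on recovered reads, 3 other scalings, no filter or a value of 50, pseudocounts of 0.1 and 5, array weights, the replicate block, a covariate of the Y-linked read share (Ddx3y, Kdm5d, Uty and Eif2s3y) and each library left out. The block in edgeR and DESeq2, both libraries numbered 1 left out, and the counts of groups apart without a library were added after seeing the data.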

Additional observations from a re-analysis of the deposited data

How the results depend on the processing

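No gene of the 10 passed the threshold of 0.05 in 21 of the 22 alternatives run; the exception was Stat5a with the Y-linked covariate (1 of 10 called; log2 fold change -0.28). The fold changes of Il2ra, Il2rb, Jak3, Stat5a, Stat5b, Cish and Socs2 kept their sign in all 22. Of the others, Il2rg turned to -0.089 with the covariate, -0.0016 with array weights and -0.12 to 0.18 with libraries left out. Socs1 ranged from -0.0013 to 0.064 and Socs3 from -0.096 to 0.083 with libraries left out, and Socs3 was 0.0205 with upper-quartile scaling, 0.073 with the covariate, 0.0020 with edgeR and the replicate block and 0.0023 with limma-voom. The median of the 10 genes moved to 0.00193 with upper-quartile scaling and from -0.08 to -0.02 with libraries left out.

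Over all genes the count called was 1 (Ifng) with array weights, with the replicate block and with edgeR and the block, 2 with DESeq2, 13 with DESeq2 and the block, 826 with the covariate, and 0 to 3 with libraries left out (Fosb, Ifng and Xist without both libraries numbered 1). With the block 1596 genes had an unadjusted p under 0.05, and it changed no call of the 10 genes. The count of the 10 whose groups were apart ran from 3 to 6 with libraries left out, which can only keep or raise it. It was 5 without control 1, where 25.8% of all genes were apart, and 6 without both libraries numbered 1, where 38.6% were.

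Of the pathway genes, the covariate also gave -0.34 for Akt1 and -0.65 for Lif, in a fit where it is partly tied to genotype. Signs turned for genes near 0, and also for Il4, Lif and Cxcr5, which had -0.32, -0.31 and -0.27 in the main fit. With the covariate they turned in Gzmb (0.24), Il15ra (-0.17), Il21r (0.068) and Tnfrsf4 (0.11). With upper-quartile scaling they turned in Il21r (0.011), Tcf7 (0.0076) and Tnfrsf4 (0.025). With array weights they turned in Il4 (0.041), Jak1 (-0.014), Lck (-0.045) and Tcf7 (0.0030). On recovered reads Gzmb was 0.0059 with edgeR, and Tnfrsf4 was 0.025 with edgeR, 0.018 with DESeq2, 0.0081 and 0.0021 with their replicate block and 0.0070 with limma-voom. With libraries left out, ranges that crossed 0 were Cxcr5 (-0.51 to 0.0041), Gzmb (-0.45 to 0.21), Il15ra (-0.088 to 0.22), Il21r (-0.10 to 0.047), Il4 (-0.63 to 0.23), Jak1 (-0.027 to 0.077), Jak2 (-0.18 to 0.018), Lck (-0.10 to 0.083), Lif (-0.49 to 0.050), Pik3cd (-0.0051 to 0.046), Shc1 (-0.11 to 0.0017), Socs6 (-0.22 to 0.011), Stat6 (-0.093 to 0.0031), Tcf7 (-0.081 to 0.016), Tnfrsf4 (-0.18 to 0.070). The cause of these shifts was not tested.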
